A study of Mus musculus with 2 samples.

Results

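The endoplasmic reticulum (ER) chaperone and stress genes are 10 genes chosen by name from 21911 protein-coding genes of GENCODE release M21. Several of them were selected on the rank of their promoter peaks in these same data, so the promoter strength given below describes them and was not tested. The assay was DNase-seq, which maps open chromatin by sequencing the ends that DNase I cuts. It was run on gastrocnemius, a calf muscle, from female B6CASTF1/J mice aged 2 months. These mice are the first-generation cross of C57BL/6J and CAST/EiJ, were untreated as far as the labels say, and carry no engineered allele named there. The group held 2 libraries, numbered replicate 1 and replicate 2, with no second condition. The labels give them different biosamples but 1 donor identifier. They may therefore share an animal, and the spread between them may be technical only.

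The ER is where secreted and membrane proteins fold. When unfolded proteins build up in it, the sensors IRE1, PERK and ATF6 set off the unfolded protein response, which raises the genes of ER chaperones. Many of these genes carry the ER stress element, in which a CCAAT block lies 9 bases before a CCACG block. The factor NF-Y binds CCAAT constitutively, and ATF6 binds CCACG beside it. In skeletal muscle the same membrane system also forms the sarcoplasmic reticulum, the calcium store of contraction.

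Exact ER stress elements were found at 6 members, and they are shown because the footprint results below turn on them. Each is written along the strand that reads CCAAT first, with the CCAAT and CCACG blocks in capitals and the 9 bases between them in lower case. The letters come from the C57BL/6J reference, GRCm38.p6, and the CAST/EiJ allele was not analysed here. The Hspa5 element lies at chr2:34772025-34772043 (+), the Hsp90b1 elements at chr10:86705638-86705656 (−) and chr10:86705533-86705551 (+), and the Calr element at chr8:84847075-84847093 (+). The Canx element lies at chr11:50325800-50325818 (−), the Pdia6 element at chr12:17266491-17266509 (+) and the Xbp1 element at chr11:5520906-5520924 (+).
Hspa5: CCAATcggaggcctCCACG
Hsp90b1, upstream copy: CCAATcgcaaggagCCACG
Hsp90b1, copy nearer the start: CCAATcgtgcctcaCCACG
Calr: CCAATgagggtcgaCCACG
Canx: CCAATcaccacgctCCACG
Pdia6: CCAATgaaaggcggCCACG
Xbp1: CCAATcgcggacggCCACG
Pdia4 at chr6:47813602-47813620 (+) and Ddit3 at chr10:127290702-127290720 (−) held a CCAAT block at the same distance from a CCACG block in which 1 letter differs. They are shown with that letter in lower case.
Pdia4: CCAATcacgggctgCCACt
Ddit3: CCAATcagaaagcggCACG

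Upstream sequence of 3 members is shown with its footprints. At Hsp90b1 and Canx it holds the elements, while at Hspa5 it ends before the element, which lies past the annotated start. A footprint is a short stretch within open chromatin where DNase I cuts are depleted, as called by the authors for each library. The stretches are taken from RefSeq's promoter sequences on GRCm38.p6, run along the gene's strand, and end at the base before the annotated start. Capitals mark bases that lay in a footprint in both libraries. They number 29 of 130 bases at Hspa5 (chr2:34771840-34771969, +), 67 of 185 at Hsp90b1 (chr10:86705510-86705694, −) and 109 of 250 at Canx (chr11:50325674-50325923, −). The Hsp90b1 element nearer the start lies on the opposite strand, so its blocks read CGTGG and ATTGG here.
Hspa5: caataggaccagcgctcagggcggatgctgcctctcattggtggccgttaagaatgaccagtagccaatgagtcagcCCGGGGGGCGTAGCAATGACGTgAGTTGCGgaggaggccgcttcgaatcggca
Hsp90b1: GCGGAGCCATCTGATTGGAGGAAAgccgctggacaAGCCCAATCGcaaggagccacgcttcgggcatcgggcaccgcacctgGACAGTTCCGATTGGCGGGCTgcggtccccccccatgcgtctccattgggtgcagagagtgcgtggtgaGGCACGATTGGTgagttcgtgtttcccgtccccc
Canx: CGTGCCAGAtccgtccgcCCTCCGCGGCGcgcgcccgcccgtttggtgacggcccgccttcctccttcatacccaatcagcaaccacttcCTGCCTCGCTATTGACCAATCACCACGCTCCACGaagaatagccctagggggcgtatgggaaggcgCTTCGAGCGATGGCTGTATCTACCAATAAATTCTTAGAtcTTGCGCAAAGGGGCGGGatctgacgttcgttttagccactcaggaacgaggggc

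The libraries differed in size. Replicate 1 held 66984 peaks and 153010 footprints, and replicate 2 held 258342 peaks and 338761 footprints, 3.86 times as many peaks. Sequencing depth is unknown. The authors gave each peak a signal on a scale that is not stated, so peaks are compared by rank within a library. A peak with any base within 1 kb of an annotated start of a gene was taken as its promoter peak. All 8 skeletal muscle marker genes and all 4 fibroblast markers had a promoter peak in both libraries, as did 3 of 4 endothelial markers. None of 4 hepatocyte markers (among them Alb) and none of 4 macrophage markers did, but 3 macrophage markers and 1 hepatocyte marker, Apoa1, had a promoter peak in replicate 2 alone. Of 4 plasma cell markers, cells known for abundant ER chaperones, Derl3, which also acts in degradation of misfolded ER proteins, alone had one, while Jchain, Mzb1 and Tnfrsf17 had a promoter peak in neither library. The part of other cell types in the members' values was not tested.

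All 10 members had a promoter peak in both libraries, which 60.2% of all protein-coding genes had. For 8 of the 10 members it ranked among the strongest 1% of peaks in each library, which held for 3.34% of all genes (732 genes). The rule used these ranks, so nothing is read from the difference. The members' median percentile, averaged over both libraries, was 99.69, against 92.4 for the 13187 genes with a promoter peak in both libraries. With only the stronger part of each list kept, 50% of its peaks, 5 members instead of 8 stood among the strongest 1%.

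Hspa5 encodes BiP, the Hsp70 chaperone of the ER lumen that also holds the stress sensors inactive. The gene lies at chr2:34771970-34777547 (+). Its strongest promoter peak had a signal of 22.5 and rank 12 in replicate 1, and a signal of 75.4 and rank 4 in replicate 2. The peaks of both libraries together spanned chr2:34771821-34772100, centred at −9 bp from the start. Positions are counted along the gene from its annotated start at 0, and negative ones lie upstream. Hspa5 took place 10 among the 13187 genes ordered by mean percentile.

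Hsp90b1 encodes GRP94, the Hsp90 chaperone of the ER. The gene lies at chr10:86690209-86705509 (−). Its peak had a signal of 22.8 and rank 9 in replicate 1, and a signal of 74.9 and rank 5 in replicate 2. It spanned chr10:86705501-86705780 and was centred at −132 bp. The gene Ttc41 and the miRNA gene Gm25745 also start within 1 kb of this peak, which is therefore the strongest promoter peak of Ttc41 too. Sdf2l1, whose product keeps BiP and its cofactors working together, lies at chr16:17130138-17132383 (−). Its peak had a signal of 8.36 and rank 743 in replicate 1, and a signal of 25.3 and rank 552 in replicate 2.

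The protein disulfide isomerases, which form and rearrange disulfide bonds in folding proteins, covered the members' whole range. P4hb, the classical isomerase and a subunit of prolyl 4-hydroxylase, lies at chr11:120560298-120573253 (−). Its peak had a signal of 24.2 and rank 4 in replicate 1, and a signal of 66.2 and rank 10.5 (a tie) in replicate 2. The peak spanned chr11:120572981-120573340, centred 92 bp downstream of the start in an exon annotated as UTR. Pdia4, at chr6:47796141-47813430 (−), had a signal of 10.4 and rank 390 in replicate 1, and a signal of 33.7 and rank 257 in replicate 2. Its peak was 60 bp wide in replicate 1 and 400 bp wide in replicate 2. Pdia6, at chr12:17266545-17284770 (+), was the weakest member. It had a signal of 4.56 and rank 3037 in replicate 1, and a signal of 7.41 and rank 5126.5 in replicate 2.

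Calr and Canx encode calreticulin and calnexin, the soluble and the membrane-bound lectin chaperone that hold glycoproteins while they fold. Calr, at chr8:84841850-84846934 (−), had a signal of 14.8 and rank 92 in replicate 1, and a signal of 44.8 and rank 94 in replicate 2. The processed transcript 1700122E12Rik starts within 1 kb of its peak. Canx, at chr11:50293961-50325673 (−), had a signal of 11.8 and rank 236 in replicate 1, and a signal of 24.4 and rank 593 in replicate 2. The 280 bp peak of Calr was centred at −87 bp, and the 240 bp peak of Canx at −148 bp.

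Xbp1 and Ddit3 encode transcription factors of the response. Xbp1 is the target of IRE1's splicing and Ddit3 encodes CHOP, a factor of the PERK branch linked to cell death. Xbp1, at chr11:5520659-5525893 (+), had a signal of 9.84 and rank 457 in replicate 1, and a signal of 27.4 and rank 446.5 in replicate 2. Its peak lay at chr11:5520761-5521000, in an exon annotated as UTR, 222 bp downstream of the gene's 5′ end. A second annotated start 346 bp further in lies just past it, and the peak was centred at −124 bp from that start. Ddit3, at chr10:127290774-127296288 (+), had a signal of 10.7 and rank 355 in replicate 1, and a signal of 23.2 and rank 689 in replicate 2. The processed transcript Gm4189 and a further gene record also named Ddit3 start within 1 kb of its peak.

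In both libraries Hspa5, Hsp90b1 and P4hb stood above the other members, and Pdia6 below them. The order among the first 3 was not the same, since P4hb was highest in replicate 1 and Hspa5 in replicate 2. By mean percentile P4hb took place 4 and Hsp90b1 shared place 7.5 with Ttc41. The genes next below Hspa5 were Prkaca, a catalytic subunit of protein kinase A, Mtmr4, a lipid phosphatase, and Stip1, the co-chaperone that links cytosolic Hsp70 and Hsp90. Places were 98 for Calr, 322 for Canx, 383 for Pdia4, 438 for Ddit3, 461 for Xbp1, 745 for Sdf2l1 and 3379 for Pdia6. Around the limit of the strongest 1% in replicate 1, a signal of 8.68, Xbp1 lay inside at 9.84 and Sdf2l1 outside at 8.36.

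**Figure D1:**
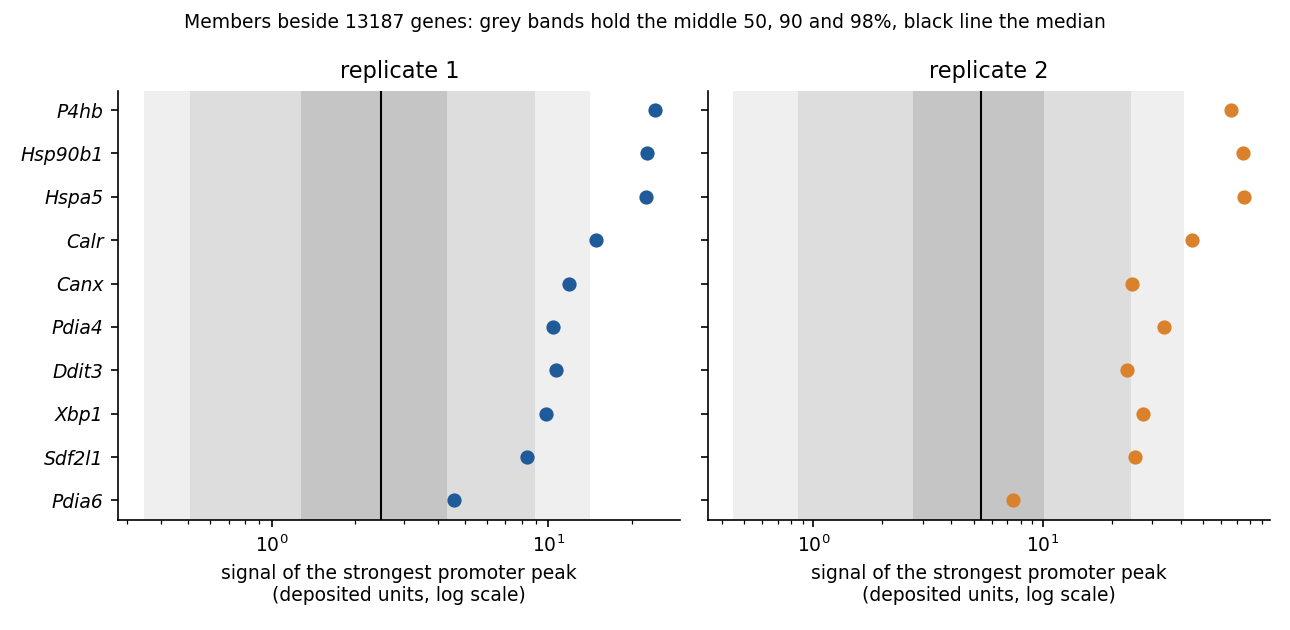
Signal of the strongest promoter peak of each member (points) in replicate 1 and replicate 2, on a log axis in the authors' deposited units; the grey bands hold the middle 50%, 90% and 98% of the 13187 genes with a promoter peak in both libraries and the black line marks their median. P4hb, Hsp90b1, Hspa5 and Calr lie to the right of all bands in both libraries, and Pdia6 lies nearest the median.

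The open stretch around the members' starts was measured from the cut rate. The deposited false discovery rate of the local cut rate was used to count the bases at 0.01 or below within 1 kb of each start. Hsp90b1 had 1797 such bases in replicate 1 and 1563 in replicate 2. Hspa5 had 1305 and 1285, and Xbp1 had 1275 and 1286. Pdia6 had the fewest, with 574 in replicate 1 and 631 in replicate 2. Ddit3 differed most between the libraries, with 1932 in replicate 1 and 1037 in replicate 2. The members' medians were 1089 and 1076 bases in replicates 1 and 2. They were 1150.5 and 1261 in the 724 other genes of the strongest 1%, and 299 and 508 over all genes. The rate rests on the same cuts as the peaks, so it is not independent of the choice of members. In both libraries Hspa5, P4hb, Pdia4, Pdia6 and Canx each had 1 unbroken run of such bases, which at Hspa5 ran from −521 to 783 bp in replicate 1, and from −502 to 782 bp in replicate 2.

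All 10 members had a footprint with its midpoint within 1 kb of a start in both libraries, which 58.7% of all protein-coding genes had. That share lay close to the 60.2% with a promoter peak in both libraries. Footprints are called within open chromatin and all members had a promoter peak, so nothing is read from this count. Ddit3 had the most in each library, with 12 footprints in replicate 1 and 13 in replicate 2. The fewest in replicate 1 were 4 at Sdf2l1, which had 7 in replicate 2. The fewest in replicate 2 were 5 at Canx and at Pdia6, which had 6 and 7 in replicate 1. Hspa5 had 7 and 9, Hsp90b1 10 and 12, and P4hb 8 and 12. The members' medians were 7.5 and 8 footprints. They were 9 and 10 in the 724 other genes of the strongest 1%, and 6 and 6 among genes with a promoter peak in both libraries. The members' medians thus lay below those of the other strong promoters. Footprints were counted around every annotated start, and the median number of starts was 4 in the members and 5 in those other genes. The part of this in the difference was not tested.

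Footprints inside the members' strongest peaks mostly recurred. Of 53 in replicate 1, 47 (88.7%) overlapped a footprint of replicate 2, and of 55 in replicate 2, 47 (85.5%) overlapped a footprint of replicate 1. In the other genes of the strongest 1% the shares were 88.4% and 84.5%, and in other genes with a promoter peak in both libraries 62.0% and 61.6%. The members' footprints were 7 to 44 bp wide in replicate 1, with a median of 16 bp, and 7 to 45 bp wide in replicate 2, with a median of 18 bp. At P4hb the widest footprint ran from −97 to −54 bp in replicate 1, and from −97 to −53 bp in replicate 2. At Ddit3 the same 24 bp, from −141 to −118 bp, formed a footprint in both libraries.

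**Figure D2:**
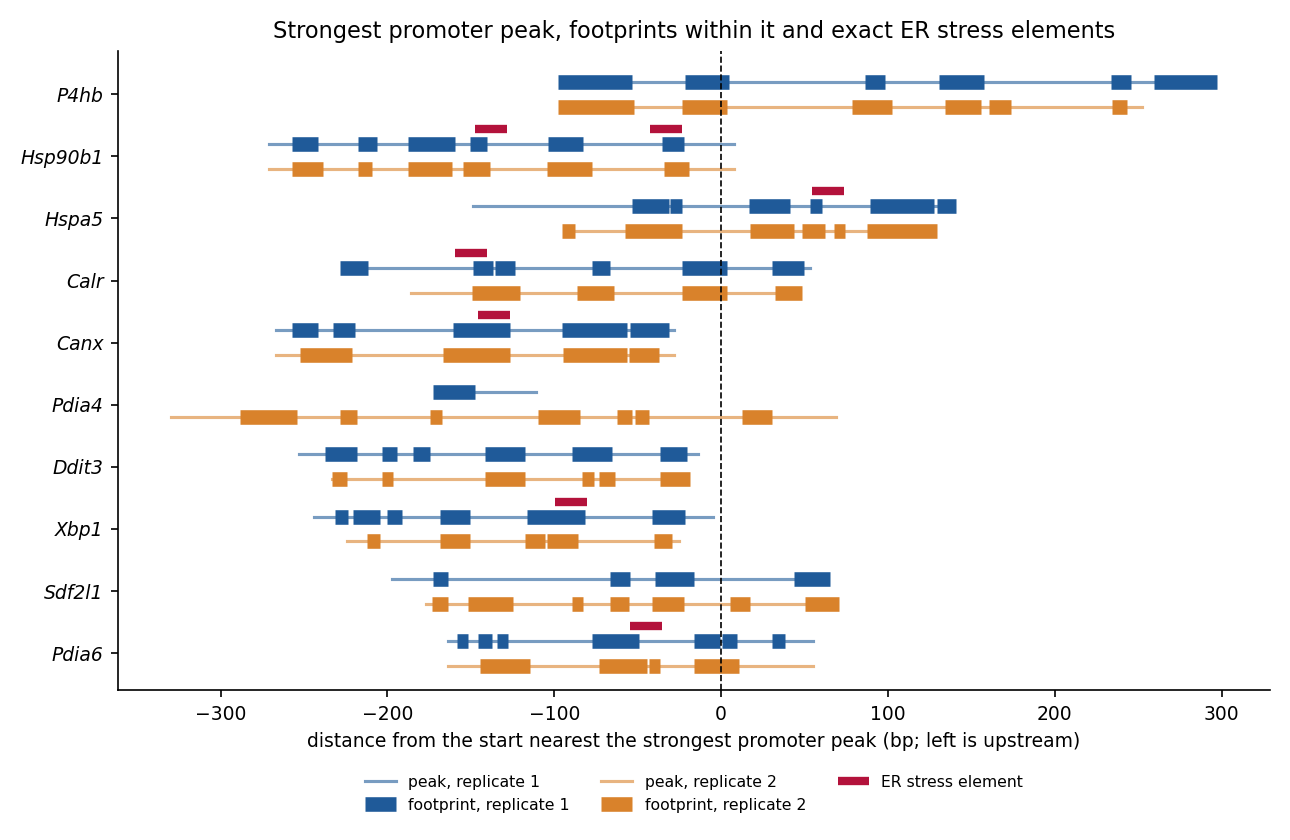
Strongest promoter peak of each member (thin lines), the footprints within it (thick bars) and exact ER stress elements (red bars above) by distance in bp from the annotated start nearest the peak, for replicate 1 (blue) and replicate 2 (orange). Footprints mostly stack between the libraries, and each of the 7 elements has a footprint of both libraries under its CCAAT end; Pdia4's narrow peak in replicate 1 holds 1 footprint.

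The ER stress element is not used by the rule that chose the members, but the members' known roles in ER stress are tied to it, so its presence among them describes them and was not tested. The windows searched ran from 250 bp before to 50 bp after the start nearest the strongest promoter peak, on both strands. The exact element, CCAAT, 9 bases and CCACG, stood in the windows of 5 of 10 members, Hsp90b1, Pdia6, Calr, Canx and Xbp1. It stood in 26 genes in all, 0.119% of protein-coding genes, and in 0.829% of the 724 other genes of the strongest 1%. These shares count Ttc41, whose match is the upstream Hsp90b1 element, and both Alg12 and Creld2, which hold the same element. Hsp90b1 alone among the members held 2 copies. Hspa5 joined when windows were placed on RefSeq's starts, since its element lies from 55 to 73 bp past the GENCODE start, and begins at −65 bp from the RefSeq start. In those windows 0.169% of 16522 genes held the element, among them 5 members, because Xbp1's element fell outside. When 1 letter of CCACG was allowed to differ, 7 members held the element, adding Pdia4 and Ddit3, against 1.14% of all genes and 6.08% of the other genes of the strongest 1%.

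The parts of the element were far more common than the whole. CCAAT stood in the windows of all 10 members, with 28 matches and a median of 2.5 per member. It stood in 39.3% of all genes and in 87.3% of the other genes of the strongest 1%, so its presence was shared with promoters of like strength. CCACG stood in 8 members, 37.8% of all genes and 57.0% of the other strongest genes. The GC box GGGCGG, which Sp1 family factors bind, stood in 8 members, 47.4% of all genes and 79.6% of the other strongest genes. Some CCAAT and CCACG matches are parts of the ER stress element and are counted in both. TATAAA stood in Calr alone. CCGGAAG (bound by ETS factors) and CAGCTG (an E-box) each stood in 3 members, and TGANTCA (AP-1) in 2. None of the 10 windows held the second form of the element (ATTGG, 1 base, CCACG), TGACGTGG (the XBP1 and ATF6 site called UPRE), TGATGNAAT (the site of C/EBP with ATF4), TGACGTCA (CRE), GCGCATGCG (NRF1) or TTCNNGAA (a pair of heat shock factor units).

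The 26 genes with the exact element fell into 2 sets. A promoter peak in both libraries was present at 14 of them (53.8%), near the 60.2% of all protein-coding genes. Nothing is therefore read from this split. Of these 14, 5 were members and 5 others stood in lists of ER genes. These 5 were Dnajc3, an ER co-chaperone that inhibits PERK, Creld2 and Ero1lb, both linked to disulfide formation, and Syvn1 and Derl3, of ER-associated degradation. The last 4 were Ttc41, which shares its peak with Hsp90b1, Alg12, which shares its peak with Creld2 and encodes a mannosyltransferase of the ER, Pan2 and Hnrnpa3. The other 12 genes had no promoter peak in both libraries. They included Esp15, Esp16, Esp18 and Esp36 of a pheromone family, the olfactory receptor genes Olfr406 and Olfr59, and the X-linked Xlr3a, Xlr3b and Xlr3c. Of the 12, Esp15, Ptgdr2, Xlr3a and Xlr3b had a promoter peak in replicate 2 alone, at percentiles 1.70, 40.4, 58.6 and 51.3.

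Every exact element of the members overlapped a footprint in both libraries. All 6 matches in the GENCODE windows did so, as did the element of Hspa5. At other genes with a promoter peak in both libraries, 6 of 7 elements in the GENCODE windows did. In the RefSeq windows 5 of 9 elements at such other genes did, and all 6 of the members. At genes without such a peak none of 12 in the GENCODE windows did. Footprints are called within open chromatin, and none of 4525 CCAAT matches at such genes did either, so nothing is read from this. The 10 matches found when 1 letter of CCACG may differ include the 6 exact ones, and all 10 overlapped a footprint in both libraries. The shares were 101 of 168 (60.1%) at other genes with a promoter peak in both libraries and 33 of 45 (73.3%) at the other strongest genes. Pdia4's match shared only 1 base with a footprint in replicate 1 and 3 bases in replicate 2. When 10 of the 19 bases had to be covered in each library, 3 of the 6 members' matches remained.

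The cover was uneven along the element. In all 7 members' elements, Hspa5's included, the 5 bases of CCAAT lay wholly in a footprint in both libraries. The 5 bases of CCACG lay wholly in a footprint at 1 of 7 elements in replicate 1 and at 2 of 7 in replicate 2, and had no base in one at 5 and 4 of them. Canx was the exception in both libraries. Its element lay wholly inside a footprint that ran from −160 to −127 bp in replicate 1, and from −166 to −127 bp in replicate 2. At Hspa5 the CCACG block was uncovered in replicate 1 and wholly covered in replicate 2. At both Hsp90b1 elements and at Calr it had no covered base in either library.

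At the 7 elements of other genes that lay in peaks of both libraries (those of Alg12 with Creld2, Derl3, Dnajc3, Ero1lb, Hnrnpa3, Pan2 and Syvn1), CCAAT lay wholly in a footprint at 4 in replicate 1 and at 6 in replicate 2. CCACG did so at 3 and 4 of them. With 7 elements on each side the difference was not tested. CCAAT also occurred in the members outside an element. Of the 22 such matches in the GENCODE windows, 11 (50%) overlapped a footprint in both libraries and 8 overlapped none in either. At Hspa5, the CCAAT matches that begin at −131 and −66 bp lay in no footprint, and the match from 22 to 26 bp lay wholly in one in both libraries. Over all CCAAT matches the members' share in footprints of both libraries was 60.7% of 28, against 65.0% of 1419 in the other strongest genes and 39.6% of 7535 in other genes with a promoter peak in both libraries. For all CCACG matches the shares were 26.3% of 19 in the members, 40.4% of 574 and 23.1% of 9407 in the same sets. CCACG thus overlapped footprints less often than CCAAT in the other genes too. Overlap with CCAAT or CCACG describes position alone, and which protein was bound was not measured.

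**Figure D3:**
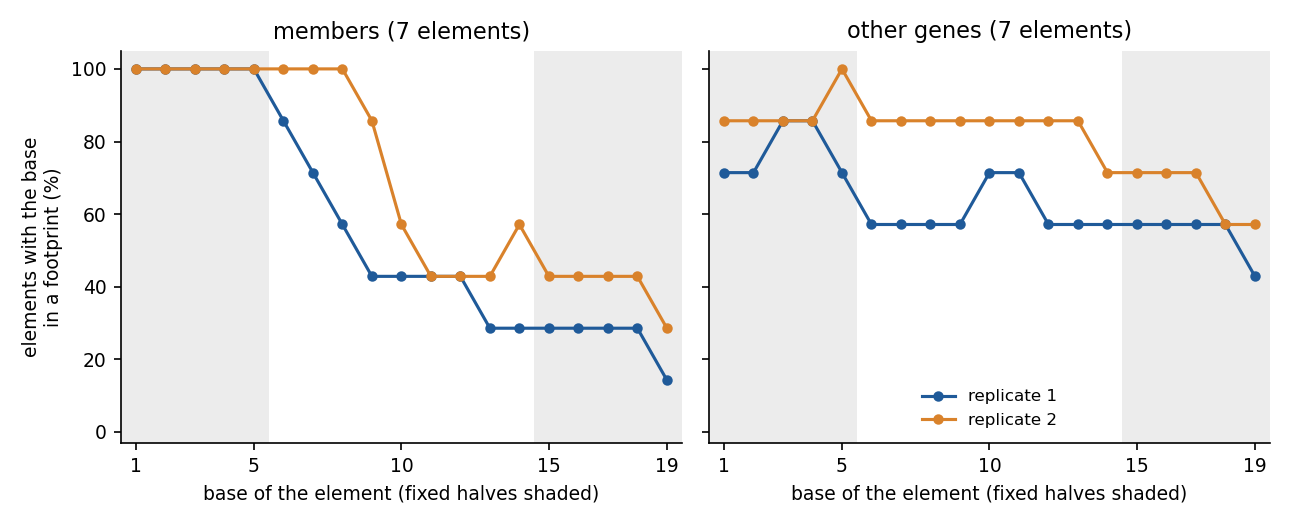
Share of ER stress elements with each of their 19 bases in a footprint, in replicate 1 (blue) and replicate 2 (orange), for the 7 elements of members (left) and the 7 of other genes that lie in peaks of both libraries (right); shading marks bases 1 to 5 and 15 to 19. All 7 members' elements are covered at bases 1 to 5 in both libraries, and 1 in replicate 1 and 2 in replicate 2 at base 19.

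P4hb and Sdf2l1 had neither the exact nor the looser element, but held its blocks singly. At P4hb a footprint of both libraries spanned the start and held the gene's only CCAAT, from −14 to −10 bp, together with a CCACG from −3 to 1 bp. A second CCACG, from −57 to −53 bp, overlapped the widest footprint. At Sdf2l1, 3 of 4 CCAAT matches overlapped a footprint in both libraries, and none of its 3 CCACG matches did. Ddit3's only CCAAT, from −58 to −54 bp, lay in no footprint in either library, although the looser element that holds it overlapped one at its other end.

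Outside the members' own promoters, most shared peaks lay near or inside other genes. In the gene body plus 10 kb either side, 44 peaks were shared by both libraries. Of these, 18 lay within 1 kb of a start of the member itself and 18 within 1 kb of a start of another gene alone. Among the first 18, peaks at Hsp90b1, Calr and Ddit3 also lay within 1 kb of another gene's start. A further 4 lay inside another gene and 3 between genes, which leaves 1 peak within a member, in an intron of Ddit3. At Hspa5 and Pdia6 the promoter peak was the only shared peak in the whole window of 25.6 kb and 38.2 kb. Pdia4 had 1 other shared peak, at the start of Rny1, the gene of a small cytoplasmic RNA. Sdf2l1 had 1 other, near the starts of 2610318N02Rik and the miRNA genes Mir130b and Mir301b.

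The other 6 members had 4 to 12 shared peaks. P4hb had the most, 12, of which 6 lay near starts of Arhgdia, Gm3807, Ppp1r27 or Mcrip1 and 3 within Arhgdia. Ddit3 had 8, of which 4 lay at its own starts and 3 near starts of Mbd6 or Gm20492. Calr had 5, among them 1 near a start of Gadd45gip1 and 1 near a start of Farsa. Canx had 4, of which the strongest outside its promoter lay near a start of Maml1, a coactivator of Notch signalling, at percentile 96.6 in replicate 1 and 99.4 in replicate 2. Xbp1 had 4, with 3 at its own starts and 1 within Ccdc117, and Hsp90b1 had 5, with 3 at its own starts and 2 near 1810014B01Rik.

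Scaled by window length, the members' median was 1.16 shared peaks per 10 kb. It was 0.633 in the other strongest genes, 0.528 in genes with a promoter peak in both libraries and 0.326 over all genes. Without scaling the medians were 4, 3, 3 and 2 shared peaks in the same order. The promoter peak that every member had counts here, so nothing is read from the difference. The members' density ranged between 0.262 at Pdia6 and 3.64 at P4hb. The median rested on peaks of both libraries, and counting the peaks of replicate 2 alone it was 2.83 per 10 kb, against 0.977 over all genes in that library. The median number of shared peaks outside the member's own promoter was 1.5, against 1 in the other strongest genes and 1 over all genes. Replicate 2 alone gave 4.5. Both values changed with the window. With 50 kb flanks the median was 0.617 per 10 kb and 4.5 peaks outside the promoter, and in the gene body alone no peak lay outside the promoter at the median (0). With the shorter peak lists the median was 0.745 per 10 kb. At Ddit3 the window held 11 peaks in replicate 1 and 44 in replicate 2, and at Pdia6 it held 1 and 11.

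**Figure D4:**
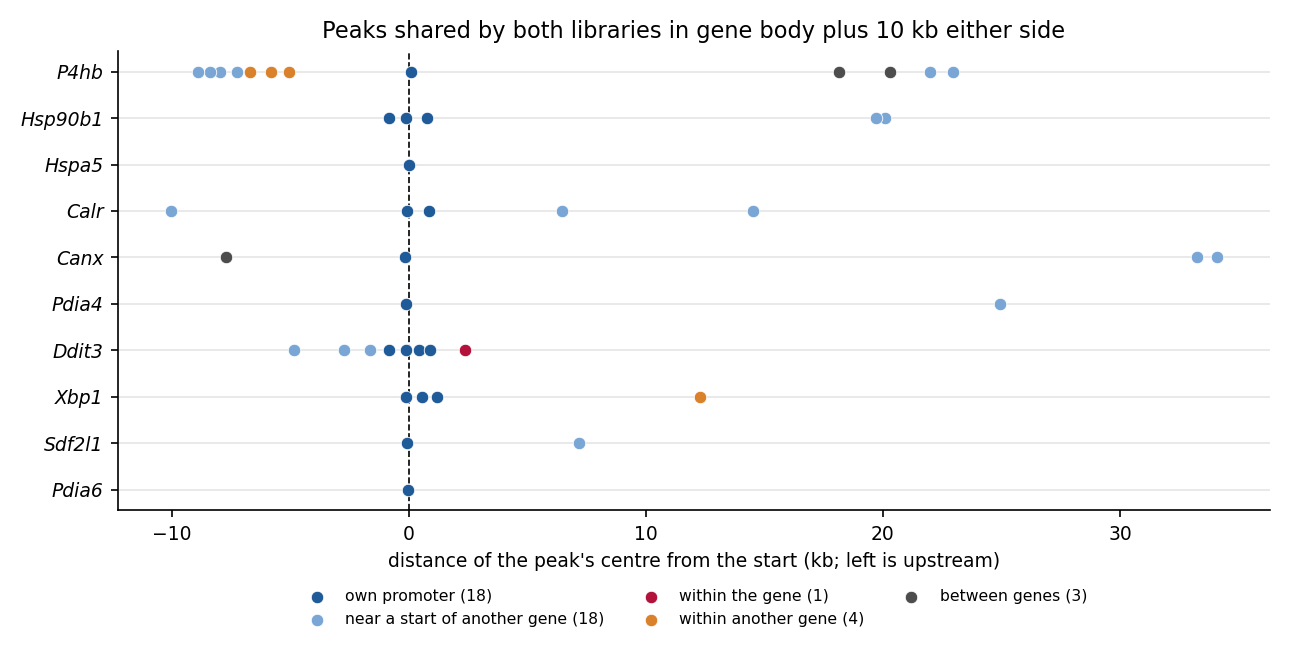
The 44 peaks shared by both libraries in each member's gene body plus 10 kb either side, by distance of their centre from the start in kb (upstream on the left), coloured by where they lie. Each member has a peak at its start, and the only peak inside a member and away from its starts is at Ddit3.

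Base composition of the members' 300 bp windows was close to that of other strong promoters. Their median GC content was 64.7%, with a range of 60.0% at Calr to 70.3% at Pdia6, against 63.3% in the other strongest genes and 57.0% over all genes. The median ratio of observed to expected CpG was 0.858, against 0.837 in the other strongest genes and 0.597 over all genes.

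Other genes of the same pathways had a promoter peak in both libraries almost without exception, against 60.2% of all genes. Some of these peaks were weak. The lowest mean percentile was 57.5 among the sensors and processing genes and 57.8 in the PERK and ATF4 branch. These lists were also drawn up with earlier results of these data known, and no test was made over them. All 26 other genes of ER folding had a promoter peak in both libraries, with a median percentile of 97.8, and 9 were among the strongest 1%. The leading ones were Dnajb11 (99.96), a co-chaperone of BiP, Dnajc3 (99.93) and Manf (99.92), a secreted BiP-binding factor. All 14 genes of ER-associated degradation did, with a median of 98.6 and 6 among the strongest, led by Derl2 (99.98), a channel component, Vcp (99.82), the ATPase that extracts proteins, and Edem3 (99.79), a mannosidase.

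All 8 sensors and processing genes of the response had a promoter peak in both libraries, with a median of 96.2 and 2 among the strongest. They were led by Eif2ak3 (99.90), which encodes PERK, Atf6b (99.81), a relative of ATF6, and Creb3l2 (98.93), an ER-bound transcription factor. All 13 genes of the PERK and ATF4 branch did, with a median of 98.6 and 3 among the strongest, led by Ddit4 (99.90), an inhibitor of mTORC1, Ppp1r15b (99.76), which directs eIF2α dephosphorylation, and Atf4 (99.68). All 12 genes of translocation into the ER did, with a median of 95.8 and none among the strongest 1%. Spcs3 (99.18), Ssr3 (98.79) and Spcs2 (98.72) led them.

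Of 9 relatives of the members outside the ER or in germ cells, 7 had a promoter peak in both libraries, with a median of 98.5, and Hspa8 (99.61), the constitutive cytosolic Hsp70, was the 1 among the strongest. Hsp90ab1 (98.75) and Hspa9 (98.55) followed. Clgn and Pdilt, the calnexin relative and the disulfide isomerase relative of male germ cells, had a promoter peak in neither library. All 8 genes of sarcoplasmic reticulum calcium handling had a promoter peak in both libraries, with a median of 95.6 and none among the strongest 1%. Srl (98.35), Ryr1 (96.68), the calcium release channel, and Atp2a1 (96.15), the calcium pump of fast fibres, led them. The exact ER stress element stood in 3 of the 26 folding genes, in 2 of the 14 degradation genes and in none of the other 5 lists.

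**Figure D5:**
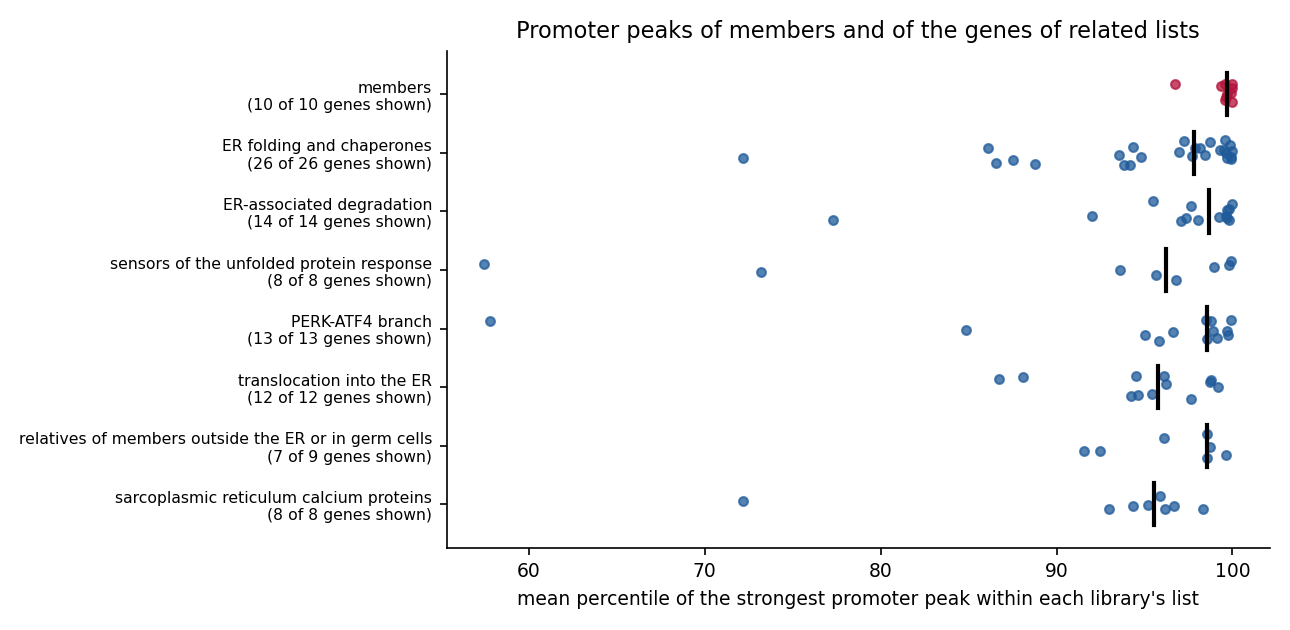
Mean percentile of the strongest promoter peak over both libraries for the members (red) and for the genes of 7 related lists (blue), with each list's median as a black bar; genes without a promoter peak in both libraries, Clgn and Pdilt, are not shown. The members' median is 99.69, and the medians of the other lists lie between 95.6 for sarcoplasmic reticulum calcium proteins and 98.6 for ER-associated degradation.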

How the data were processed

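DNase-seq of 2 gastrocnemius libraries was analysed on mm10. Peaks were called on the filtered alignments of 1 library at a time, per the deposited README files. The authors gave each peak a signal (scale not stated). Their false discovery rate file, read as a p-value column, lists segments at 0.05 or below, and the footprint file's p-value column, as deposited, is 0.01 throughout. The sources used here name no aligner, caller or version. The longer of each library's 2 peak lists was used. Peaks that overlapped a peak of the other library by at least 1 bp were merged into 49160 shared peaks.

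Genes and starts came from GENCODE M21, sequence from GRCm38.p6, whose chromosome ends no peak passed. All 10 members matched RefSeq's promoter table. Members, lists and the element were chosen with earlier results of these data known. Named were all members, per list the 3 genes with the best mean percentile and those without a promoter peak, the 3 genes next below Hspa5 in order, genes starting within 1 kb of a member's peak, and, chosen after values were seen, genes with the element or neighbouring peaks. With 1 group no test was possible and none was made. On simulated data, 200 of 200 planted promoter peaks, shared peaks and elements were recovered. The planted peaks were strong and the elements exact, so this checks the search steps alone and says nothing about these data. Python 3.11.15, numpy 2.4.6, pandas 2.3.3, matplotlib 3.10.9 and samtools 1.23.1 were used. Alternatives were other peak lists, promoter distances, windows, overlaps, rate limits and single libraries.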

Additional observations from a re-analysis of the deposited data

How the results depend on the processing

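The counts of members with a promoter peak (10) and with a promoter footprint (10) in both libraries did not move under any alternative run. The count with an exact element lay between 4 and 6, and it was 7 when 1 letter of CCACG was allowed to differ. Of 166 alternative values, 152 stayed within 1.5 times the count or within 1 SD between the libraries, and 14 moved further. This tally does not measure stability, since 104 of the values were counts for the pathway and marker lists. For medians the SD came from the 2 single-library values themselves. For shared peaks per 10 kb it was 1.18, wider than the main value of 1.16. The members' median percentile was 99.5 with the shorter peak lists, and 99.6 and 99.9 in single libraries. Among the strongest 1% stood 5 members when 50% of each list was kept, since the limit then lies higher, and 8 or 9 in single libraries. The median number of footprints was 8.25 within 2 kb, and 7.5 and 8 in single libraries. Shared peaks per 10 kb were 1.16 and 2.83, and peaks outside promoters 1.5 and 4.5, in single libraries, where all peaks of that library count. With 50 kb flanks they were 0.617 per 10 kb and 4.5 outside promoters, with the gene body alone 1.55 and 0, and with the shorter lists 0.745 and 1.5. The members' elements under footprints of both libraries were 10 of 10 in the looser form, 6 of 6 in the RefSeq windows and 3 of 6 with 10 bases covered. The looser form was added after the data were seen, and the RefSeq windows were not planned either. Median bases at low rate were 1247 at 0.05 and 1016.75 at 0.001, against 1082.5 at 0.01, and 1076 and 1089 in single libraries. Of the pathway lists, the sensors and processing genes with a promoter peak in both libraries fell from 8 to 6 with the shorter lists. With the gene's 5′ end as the only start, the PERK and ATF4 branch fell from 13 to 11. Translocation fell from 12 to 10 and ER folding from 26 to 25 in that setting. Of the marker lists, hepatocyte markers reached 1 of 4 within 2 kb and 0 to 1 in single libraries, endothelial markers 1 with the stronger 50% of peaks, and macrophage markers 0 to 3 in single libraries. No paired analysis was possible because there is 1 group and no test. Depth is unknown, so a missing peak or footprint does not show closed chromatin, and 2 libraries give no error for a typical muscle.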
